A study of Mus musculus with 8 samples.

Results

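The proteins that find the 5′ splice site, the exon-intron border at which splicing begins, were examined in B cells with and without the arginine methyltransferase Prmt5. They were chosen by symbol as 9 genes of the 39017 in the gene table: Snrnp70, Snrpa and Snrpc, which encode the U1-70K, U1-A and U1-C proteins of the U1 snRNP; Luc7l, Luc7l2 and Luc7l3, homologs of the yeast U1 protein Luc7; Tia1 and Tial1, which help U1 to bind; and Prpf39, homolog of another yeast U1 protein. All 9 were measured well enough to be tested. Their splicing events were looked up by the same symbols in the authors' tables of alternative splicing, where 5 of the 9 genes had 12 of the 1918 listed events.

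The cells were splenic B cells of C57BL6/J mice grown on 40LB feeder cells, a fibroblast line that carries CD40L and BAFF, with IL-4 at 1 ng/mL, and separated from the feeders by elutriation at day 4. The study calls them induced germinal center B cells (iGBs). Prmt5-null iGBs carried Prmt5 F/F Cγ1-cre and control iGBs carried Cγ1-cre alone, so both genotypes expressed the recombinase, and 4 libraries of ribosomal RNA-depleted total RNA represented each genotype. Cγ1-cre becomes active when B cells are stimulated and begin to transcribe the Cγ1 region, so the loss of Prmt5 started during the culture. The labels gave no ages of the mice, and p-values measure the spread between these 4 and 4 cultures. Values by library are given throughout in 1 order of the labels, which is PRMT5-10617, PRMT5-10618, PRMT5-10770 and PRMT5-10771 for Prmt5-null iGBs, and for control iGBs CTRL-10650 and CTRL-10370, then CTRL-10596 and CTRL-10597.

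Splicing starts when U1 snRNA base-pairs with the end of the exon and the first bases of the intron. U1-70K, U1-A and U1-C are the proteins found only in U1, and U1-C contacts the paired RNA directly. The LUC7 proteins and Prpf39 associate with U1 and help it to settle on 5′ splice sites of differing strength. TIA-1 and TIAR, the products of Tia1 and Tial1, bind runs of uridine just downstream of weak sites and help to recruit U1 through U1-C. U1 is later released, and U6 snRNA takes its place at the site. Many genes for splicing proteins contain "poison" exons, whose inclusion brings in a stop codon and sends the transcript to nonsense-mediated decay.

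Each library held between 36731721 and 50366174 reads on genes. Prmt5 itself was at 1291, 1994, 1060 and 1808 normalized counts in the Prmt5-null libraries and at 13087, 11084, 11657 and 11267 in the control libraries, a log2 fold change of -2.98 (adjusted p = 6.14e-06 by limma), in keeping with the labels. A normalized count is a read count divided by the size factor of its library. All 8 B cell markers looked up were abundant, with Cd79a called lower in Prmt5-null iGBs. Of 6 T cell markers 2 could be tested and 1, Lck, was called lower in Prmt5-null iGBs (384 ± 70.04 against 730 ± 50.6 normalized counts, SD, n = 4 each), and the defining marker Cd3e was at 0 in every library. The summed level of the list was 327 to 484 in Prmt5-null and 690 to 809 in control libraries, and nearly all of it was Lck. Of 6 germinal center markers 1, S1pr2, was called lower in Prmt5-null iGBs. Fas (log2 fold change 0.47, adjusted p = 0.00504 by limma) and Mef2b (0.51, adjusted p = 0.0282) were higher but short of the 1.5-fold that a call needs. Of the 4 myeloid and 5 plasma cell markers tested 0 were called. Prdm1 (-0.48, adjusted p = 0.0428 by limma) and Xbp1 (-0.45, adjusted p = 0.0305) were lower but also short of 1.5-fold. The rule for a call, given below, called 6.48% of all genes tested. Of 10 fibroblast markers, which feeder cells would carry, 9 could be tested and 3 (Col3a1, Col1a2 and Sparc) were called higher in Prmt5-null iGBs; their summed level was 7370 to 12407 normalized counts in Prmt5-null and 4741 to 8302 in control libraries, at most 0.0284% of a library's reads. The part of these cell types in the results below was not tested. In bulk RNA like this, fewer cells of a type and less RNA per cell cannot be told apart.

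None of the 9 genes passed the test between the genotypes. A gene was called changed at an adjusted p below 0.05 and a difference of at least 1.5-fold by limma on log2(normalized count + 1), a rule that called 6.48% of the 16250 genes tested (3.49% higher and 2.99% lower in Prmt5-null). By limma 0 of the 9 were called, and 1, Prpf39, had an unadjusted p below 0.05, against 29.3% of all genes tested. edgeR also called 0 (6.71% of all genes), and DESeq2 called 1, again Prpf39 (7.86% of all genes). In all 9 genes the range of the Prmt5-null libraries overlapped that of the control libraries, whereas 19.8% of all genes tested showed no overlap. The median log2 fold change of the 9 was 0.08, with 0.00 over all genes tested. For 8 of the 9 the 95% interval lay within a 1.5-fold change in either direction, so that changes of that size were outside the intervals of all but Prpf39.

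**Figure D1:**
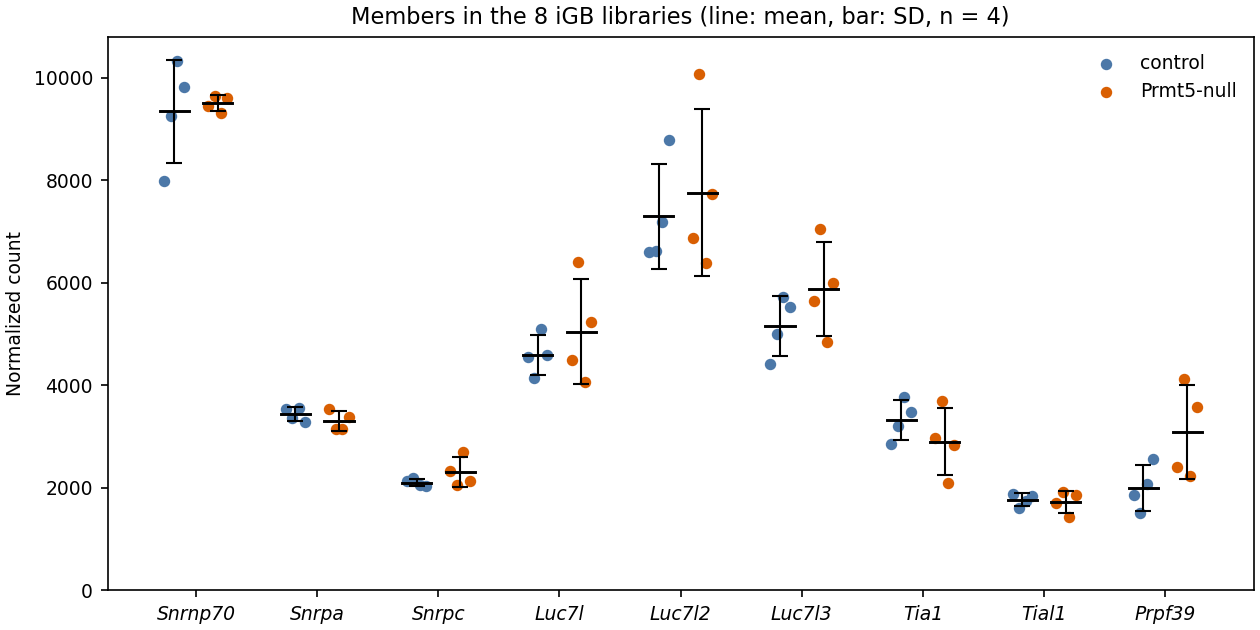
Normalized counts (vertical axis, linear) of the 9 genes in the 4 control and 4 Prmt5-null libraries, 1 point per library, with the mean as a line and the SD as a bar. The genotypes overlapped in every gene, and Prpf39 had the largest gap between the means, 1994 in control and 3080 in Prmt5-null iGBs.

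Of the U1-specific proteins, U1-70K is encoded by Snrnp70 (chr7:45376453-45395742, minus strand, GRCm38). It had 9442, 9652, 9304 and 9612 normalized counts in the Prmt5-null libraries and 7977, 9255, 10320 and 9822 in the control libraries. All 4 Prmt5-null values lay inside the control range, and they were close together (9502 ± 161, against 9344 ± 1010 in control, SD, n = 4 each). The log2 fold change was 0.03 with a 95% interval from -0.15 to 0.21 (limma, adjusted p = 0.845). Without control library CTRL-10650, the lowest, it was -0.043.

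Snrpa (chr7:27187005-27196271, minus strand) encodes U1-A, which binds a stem-loop of U1 snRNA. It had 3535, 3136, 3147 and 3385 normalized counts in Prmt5-null and 3538, 3352, 3550 and 3278 in control iGBs. Of the Prmt5-null libraries 2 lay below the lowest control. The difference was small, with a log2 fold change of -0.06 (95% interval -0.21 to 0.10, adjusted p = 0.649 by limma).

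Snrpc (chr17:27838150-27851968, plus strand) encodes U1-C. Its values were 2331, 2048, 2695 and 2125 in Prmt5-null and 2126, 2186, 2044 and 2041 in control iGBs, so the Prmt5-null libraries were the more variable (coefficient of variation 12.6% against 3.35%) and 2 of them exceeded all controls. The log2 fold change was 0.12 (95% interval -0.08 to 0.32, limma, adjusted p = 0.401).

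None of the 3 LUC7 genes passed the test either. Luc7l (chr17:26252896-26285504, plus strand) had 4489, 6395, 4057 and 5229 normalized counts in Prmt5-null and 4552, 4139, 5100 and 4580 in control iGBs. Library PRMT5-10618 was far above the control range, library PRMT5-10771 slightly above it and library PRMT5-10770 just below it. The log2 fold change was 0.12 (95% interval -0.16 to 0.39, limma, adjusted p = 0.579), and it was -0.0041 without library PRMT5-10618.

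Luc7l2 (chr6:38551334-38609470, plus strand) repeated this arrangement at a higher count. It had 6864, 10067, 6377 and 7727 in Prmt5-null and 6600, 6615, 7186 and 8784 in control iGBs. Library PRMT5-10618 was again the highest of all 8 and library PRMT5-10770 the lowest, and the log2 fold change was 0.08 (95% interval -0.22 to 0.38, limma, adjusted p = 0.759), or -0.056 without library PRMT5-10618.

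Luc7l3 (chr11:94287890-94321988, minus strand), the third homolog, had 5650, 7051, 4839 and 6003 in Prmt5-null and 4406, 4991, 5717 and 5516 in control iGBs. Here 2 Prmt5-null libraries, PRMT5-10618 and PRMT5-10771, were above all controls and none was below them. The log2 fold change was 0.18 (95% interval -0.07 to 0.44, limma, adjusted p = 0.323).

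Of the uridine-binding pair, Tia1 (chr6:86404219-86433405, plus strand) had the most negative log2 fold change of the 9, -0.22, but its interval, -0.54 to 0.11, included 0 (limma, adjusted p = 0.36). It had 2974, 3700, 2094 and 2835 normalized counts in Prmt5-null and 2848, 3203, 3766 and 3485 in control iGBs. Libraries PRMT5-10770 and PRMT5-10771 lay below the lowest control, the second by a narrow margin. Leaving out library PRMT5-10770 brought the log2 fold change to -0.072, and leaving out library PRMT5-10618 brought it to -0.35.

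Tial1 (chr7:128439777-128461717, minus strand) had 1707, 1908, 1433 and 1854 normalized counts in Prmt5-null and 1873, 1600, 1748 and 1844 in control iGBs. Library PRMT5-10770 was lowest of all and library PRMT5-10618 highest. The log2 fold change was -0.04 (95% interval -0.26 to 0.18, limma, adjusted p = 0.833), and 0.047 without library PRMT5-10770.

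Prpf39 (chr12:65036333-65063386, plus strand) differed most. It had 2399, 4125, 2226 and 3571 normalized counts in Prmt5-null (mean 3080 ± 918) and 1849, 1500, 2068 and 2560 in control libraries (mean 1994 ± 443, SD, n = 4 each). Libraries PRMT5-10618 and PRMT5-10771 were well above every control, and the other two lay inside the control range. The log2 fold change was 0.61 (95% interval 0.16 to 1.05), with an adjusted p = 0.0679 by limma, just short of the threshold. An exact two-sided permutation test over the 8 libraries gave p = 0.0857, where 4 against 4 can give no less than 0.0286. The call turned on the choice of libraries and tool: Prpf39 was called by limma without Prmt5-null library PRMT5-10770 (log2 fold change 0.75, adjusted p = 0.0226) or without control library CTRL-10597 (0.73, adjusted p = 0.0451), and by DESeq2 (0.63, adjusted p = 0.0167).

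**Figure D2:**
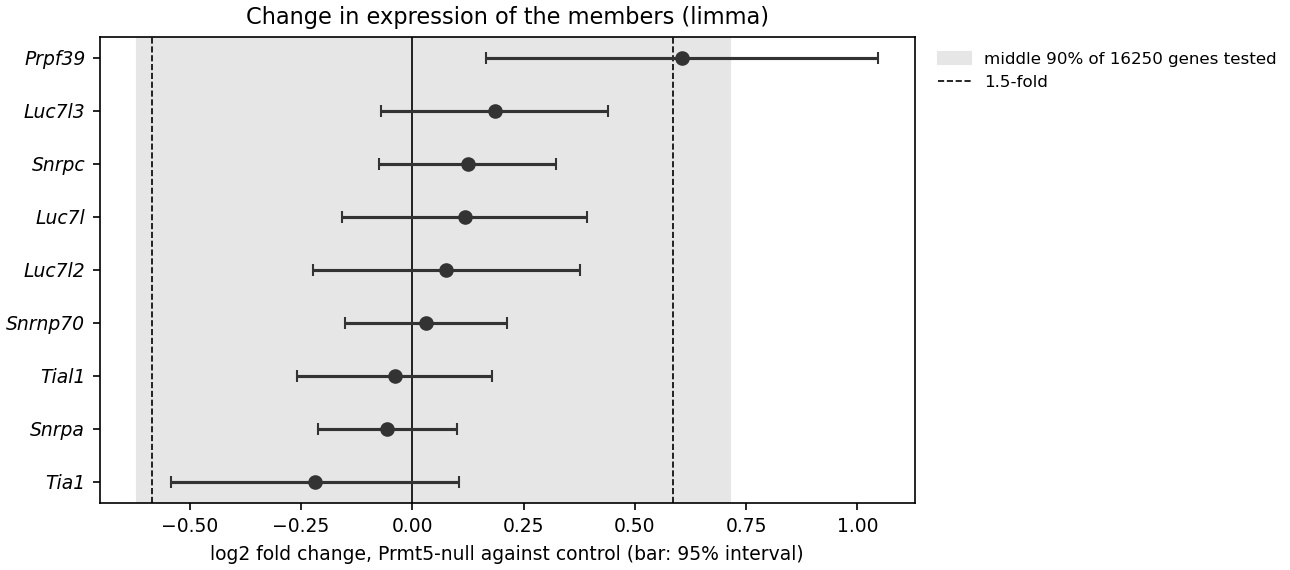
Log2 fold change of each gene in Prmt5-null against control iGBs (horizontal axis) with its 95% interval by limma, the range from -0.62 to 0.71 that held the middle 90% of the 16250 genes tested (grey) and the 1.5-fold lines (dashed). Only Prpf39, at 0.61, passed a 1.5-fold line, and its interval was the widest.

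Within the Prmt5-null libraries several of the genes moved together. From high to low, 6 of the 9 genes (Snrnp70, Luc7l, Luc7l2, Luc7l3, Tial1 and Prpf39) took the order PRMT5-10618, PRMT5-10771, PRMT5-10617, PRMT5-10770, an order seen in 10.8% of all genes tested. With Tia1, 7 of the 9 had library PRMT5-10618 highest and library PRMT5-10770 lowest, as did 18.3% of all genes. Snrpc was the reverse, with PRMT5-10770 highest and PRMT5-10618 lowest (18.4% of all genes), and Snrpa followed neither. This order was noticed after the values were seen, and the genes share these libraries, so the count is a description.

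Other quantities took the same order. The Prmt5 transcript that remained was highest in PRMT5-10618 (1994) and lowest in PRMT5-10770 (1060). The share of reads on genes of the mitochondrial genome was 0.901% in PRMT5-10618, 0.759% in PRMT5-10771, 0.587% in PRMT5-10617 and 0.368% in PRMT5-10770, and that on Malat1, a nuclear long noncoding RNA, was 0.259%, 0.182%, 0.162% and 0.103%. Reads on ribosomal protein genes made up 7.05% of library PRMT5-10770 and between 5.47% and 5.78% of the other 3 Prmt5-null libraries. The part of these differences in the results was not tested.

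**Figure D3:**
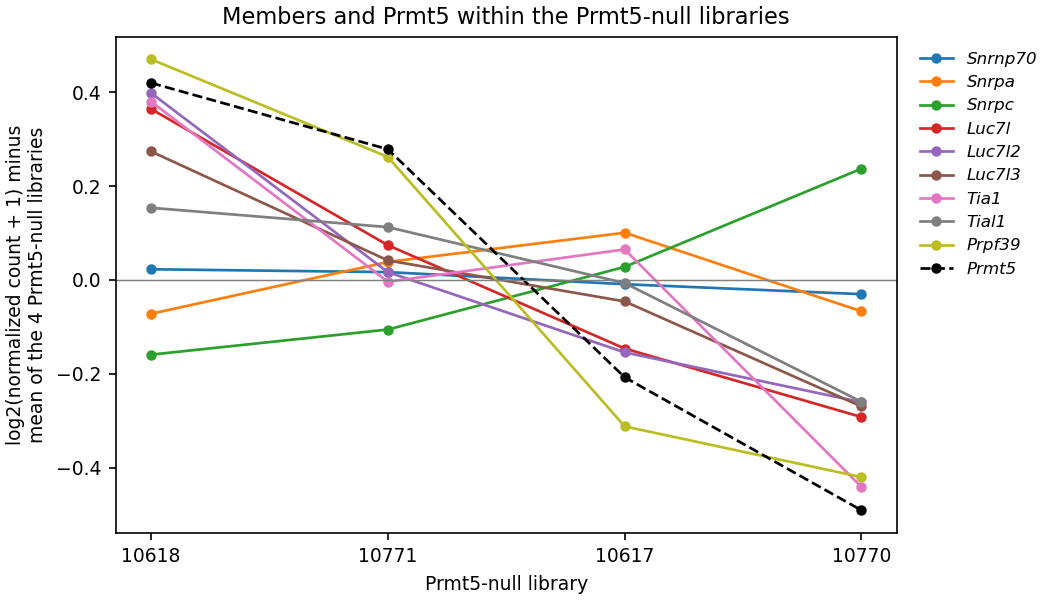
For each of the 9 genes and Prmt5 (dashed), log2(normalized count + 1) in each Prmt5-null library minus the mean of the 4 Prmt5-null libraries (vertical axis), with the libraries in the order PRMT5-10618, PRMT5-10771, PRMT5-10617, PRMT5-10770. Most lines descend from left to right, Prpf39 (4125 to 2226 counts) and Prmt5 (1994 to 1060) most steeply among them, and Snrpc climbs.

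Levels were compared between genes as normalized counts per kilobase of annotated exon. In control iGBs Snrnp70 (1227 ± 133, SD, n = 4) and Snrpa (1157 ± 45.8) were the highest, and their ranges overlapped. The LUC7 genes followed with Luc7l3 at 709 ± 80.7, Luc7l at 611 ± 52.4 and Luc7l2 at 604 ± 85.1 per kilobase, again with overlapping ranges. Snrpc was at 322 ± 10.8, Tial1 at 256 ± 17.8, Tia1 at 211 ± 24.9 and Prpf39 at 167 ± 37.1 per kilobase. The ranges of Tial1 and Tia1 overlapped, as did those of Tia1 and Prpf39. Only the leading pair kept its rank when the length of the longest transcript was used instead: Luc7l2 moved from rank 5 to 3, Tia1 from 8 to 6 and Snrpc from 6 to 9.

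Of the Sm proteins, which form the ring shared by U1 and other spliceosomal snRNPs and include known substrates of Prmt5, 7 of 8 could be tested, 0 were called by limma, 1 had an unadjusted p below 0.05, and the median log2 fold change was 0.13. edgeR and DESeq2 also called 0 of them. The 4 U1 snRNA genes in the table (Rnu1a1, Rnu1b1, Rnu1b2 and Rnu1b6) had 0 calls by any of the 3 tools, 0 with an unadjusted p below 0.05, and a median of -0.21. They are near-identical copies counted from uniquely mapped reads, so these values are uncertain. Their summed level was 308 to 391 normalized counts in Prmt5-null and 259 to 453 in control libraries, at most 0.00101% of a library's reads. The lack of calls therefore says little about the amount of U1 snRNA in the cells.

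Of 20 genes listed for U6 and for the hand-over of the site from U1 to U6, 19 could be tested. Of these 2 were called higher in Prmt5-null iGBs and 0 lower, where 3.49% and 2.99% of all genes tested were. The median change of the 19 was 0.12 on the log2 scale, with 0.00 over all genes tested. Prpf3, a protein of the U4/U6 snRNP, had 3119, 3308, 3528 and 3619 normalized counts in Prmt5-null and 1883, 1794, 1855 and 1897 in control iGBs, with no overlap (log2 fold change 0.87, 95% interval 0.71 to 1.03, adjusted p = 4.35e-05 by limma). Mettl16, which methylates U6 snRNA at the base that pairs with the 5′ splice site, had 5634, 5893, 5788 and 5983 in Prmt5-null and 3748, 3450, 3879 and 3961 in control iGBs (log2 fold change 0.63, 95% interval 0.48 to 0.78, limma, adjusted p = 0.000214). With no minimum fold 7 of the 19 passed at an adjusted p below 0.05, a rule that 13.8% of all genes tested passed. The 7 included Ddx23, the helicase that removes U1 from the site (0.52), and Sart3, a U6 recycling factor (0.51).

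In the splicing tables, of the 9 genes 5 (Luc7l, Luc7l2, Tia1, Tial1 and Prpf39) had at least 1 listed event, as did 11.4% of the 13300 genes with a mean above 50 and 13.7% of the 5279 genes with a mean at least that of the lowest of the 9. Events of more than 1 type were listed for 4 of the 9 genes, and for 2.48% of the 13300. Tia1 had events of 4 of the 5 types, which 0.0902% of the 13300 genes had, and Luc7l of 3 types (0.429% had at least 3), although events in 1 gene overlapped and shared reads. Of the 12 events 10 had higher inclusion in Prmt5-null iGBs. These include 2 mutually exclusive pairs, whose level is that of the first exon against the second, so their direction follows that convention. Every cassette exon among the 12 events was one that no annotated protein-coding transcript contains. Snrnp70, Snrpa, Snrpc and Luc7l3 had no listed event.

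An inclusion level is the share, corrected for length, of the form with an exon, extra stretch or intron among the forms that the event compares. It is not a share of all transcripts of the gene. The libraries were of total RNA, so RNA not yet spliced was not told apart from a form that keeps an intron. The authors listed 4 levels per genotype without naming their libraries, so levels are given as the authors' values in the listed order, with the mean computed here and no SD. The tables number the genotypes without naming them, and the first was taken as control from the study's wording, so the direction of all 12 events rests on that reading. Under it, the reads behind 148 of the 155 listed events in genes called by limma differed between the genotypes in the same direction as the gene's normalized counts. The tables hold, per gene and event type, only the event most significant in the authors' test, chosen for a difference between these samples, so no test was made on them and a gene without an entry may still have changed splicing. Over all listed events 50.8% had levels that did not overlap between the genotypes, and 7 of the 12 here. With junction reads alone it was also 7 of the 12, without the Luc7l alternative 5′ splice site and with the Tia1 retained intron. Higher inclusion in Prmt5-null iGBs was found in 32.6% of all cassette exons, 56.3% of mutually exclusive exons, 64.7% of alternative 5′ splice sites, 50.8% of alternative 3′ splice sites and 86.9% of retained introns in the tables.

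**Figure D4:**
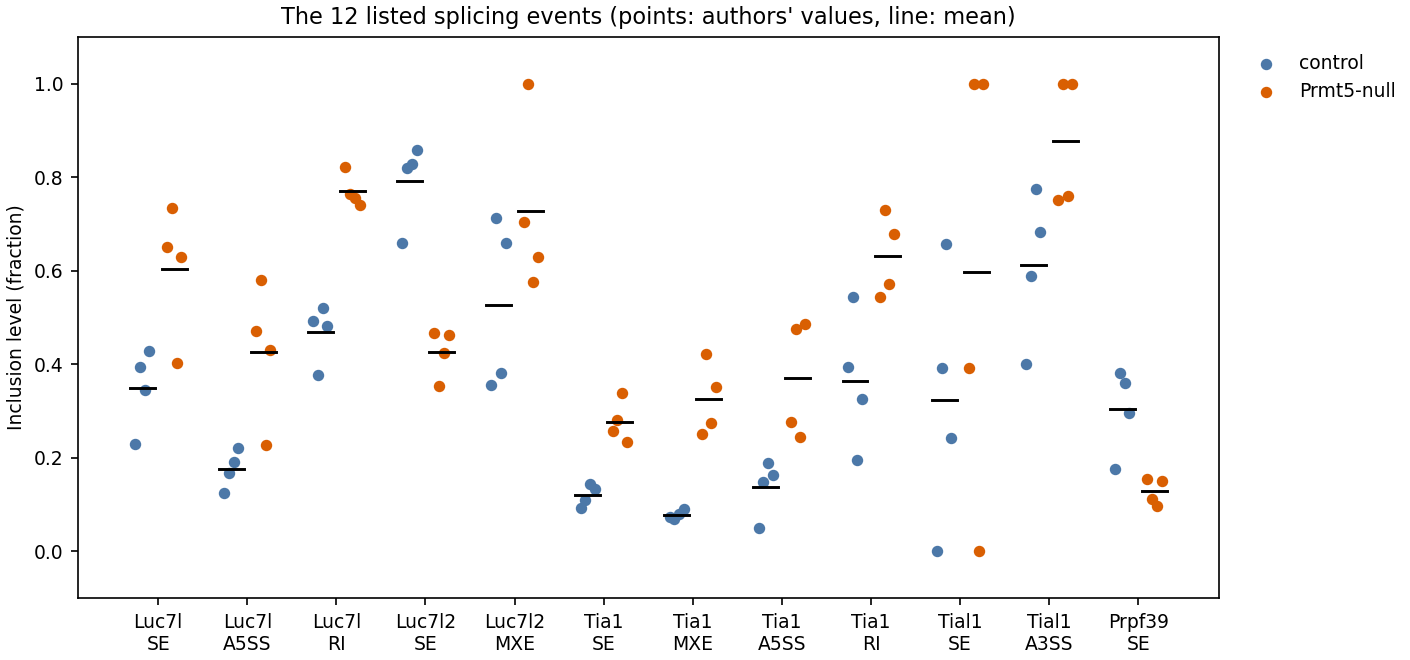
Inclusion levels (vertical axis, fraction) of the 12 events, with the 4 values the authors listed for each genotype as points and their mean as a line; SE is a cassette exon, MXE a pair of mutually exclusive exons, A5SS and A3SS alternative 5′ and 3′ splice sites, and RI a retained intron. All events of Luc7l, Tia1 and Tial1 were higher in Prmt5-null iGBs on average, while the Prpf39 and Luc7l2 cassette exons were lower, and the points of the Tial1 cassette exon, from 1 to 8 reads each, were spread from 0 to 1.

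In Luc7l all 3 events fell within 2160 bases at the start of the gene (chr17:26252966-26255125), around a cassette exon of 71 bases in the first intron (chr17:26253974-26254044). Its inclusion levels were 0.23, 0.395, 0.344 and 0.428 in control and 0.65, 0.734, 0.403 and 0.63 in Prmt5-null iGBs, with means of 0.349 and 0.604. The genotypes overlapped through 1 Prmt5-null value. The reads that joined the flanking exons numbered 441 in the 4 control libraries and 239 in the 4 Prmt5-null libraries, and those that included the cassette exon 366 and 589.

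The intron that follows this cassette exon was the clearest of the 12 events. It spans 986 bases (chr17:26254045-26255030) and was retained at 0.492, 0.378, 0.521 and 0.481 in control and 0.822, 0.764, 0.756 and 0.74 in Prmt5-null iGBs. The means were 0.468 and 0.77 and the genotypes were far apart. Reads for the retained form numbered 1384 in control and 4204 in Prmt5-null libraries, and those for the spliced form 179 and 140. The total count of the gene, which covers all its transcripts and not only these forms, had a log2 fold change of 0.12 and was not called.

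The alternative 5′ splice site of Luc7l lies in exon 1 and adds 1297 bases, which contain the cassette exon. The long form was at 0.125, 0.168, 0.19 and 0.221 in control and 0.47, 0.579, 0.227 and 0.431 in Prmt5-null iGBs, which were just apart. Its mean went from 0.176 to 0.427 with all reads but only from 0.0895 to 0.16 with junction reads alone, where the genotypes overlapped (0.074 to 0.104 in control and 0.088 to 0.204 in Prmt5-null iGBs), so most of the difference rested on reads inside the added stretch, which the retained intron and the cassette exon also supply. The skipping reads of this event and of the cassette exon were identical, and the 3 events are not independent.

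**Figure D5:**
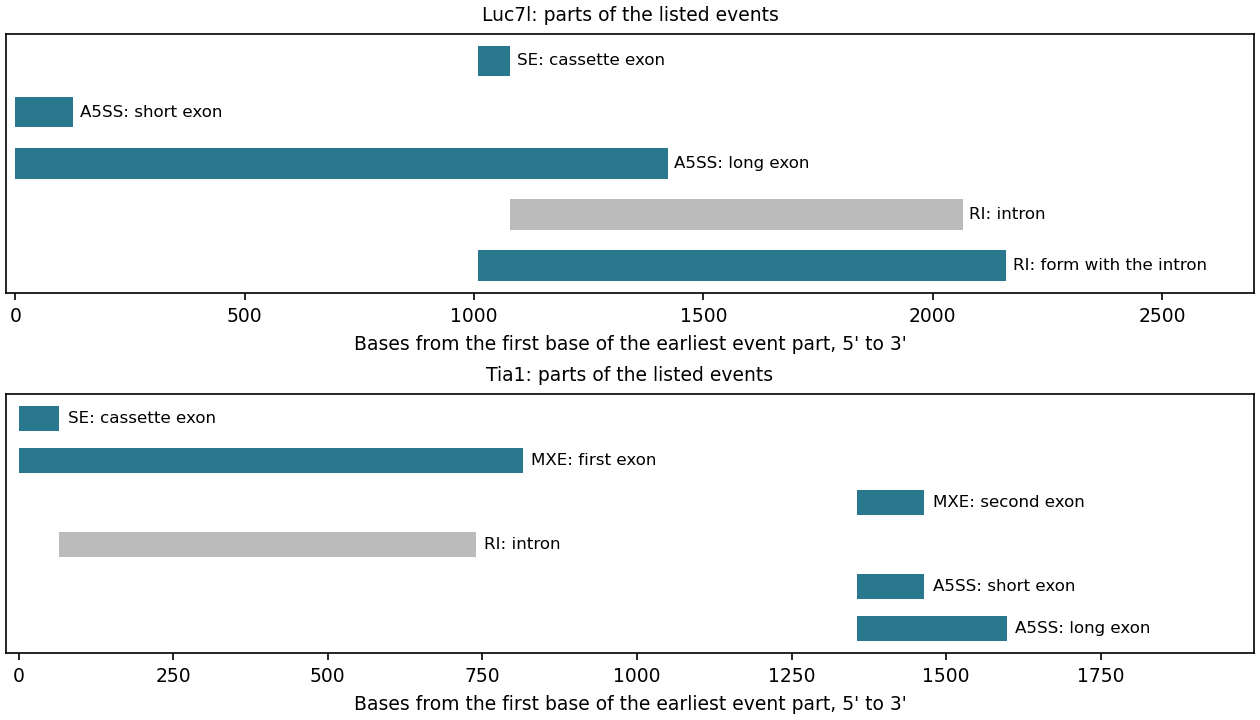
Parts of the listed events of Luc7l (top) and Tia1 (bottom) along the gene from 5′ to 3′, in bases from the start of the earliest part, with exons in teal and introns in grey. The Luc7l parts lie within 2160 bases and the Tia1 parts within 1598, and the parts of different events overlap.

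Luc7l2 has a counterpart of the Luc7l exon. Its events involve an exon of 68 bases (chr6:38565655-38565722) and a further exon of 71 bases (chr6:38568847-38568917) in the first intron. The latter matches the Luc7l cassette exon at 60 of 71 bases (84.5%). Both are printed from GENCODE transcripts, to show how alike the 2 genes are here, with identical bases in capitals.
Luc7l, cassette exon: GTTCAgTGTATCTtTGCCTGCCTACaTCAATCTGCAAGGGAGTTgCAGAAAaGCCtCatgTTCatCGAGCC
Luc7l2, second exon of the pair: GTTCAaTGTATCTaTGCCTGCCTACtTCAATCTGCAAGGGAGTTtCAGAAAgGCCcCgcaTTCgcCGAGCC

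The Luc7l2 events rested on few reads. As a cassette exon the 68 bases were included at 0.66, 0.819, 0.829 and 0.858 in control and 0.466, 0.353, 0.425 and 0.463 in Prmt5-null iGBs, with 14 to 40 reads in each library. The genotypes did not overlap, and the mean of 0.427 in Prmt5-null against 0.791 in control iGBs made this the event with the greatest difference of the 12. In the mutually exclusive pair the same exon, against the 71-base one, was at 0.356, 0.712, 0.382 and 0.659 in control and 0.703, 1.0, 0.575 and 0.629 in Prmt5-null iGBs, which overlapped, from 7 to 37 reads in each library. The mean was thus lower in Prmt5-null iGBs in the first event, whose level sets the 68-base exon against its skipping. It was higher in the second event, whose level sets the exon against the 71-base one and whose genotypes overlapped. These levels are different ratios and can differ in direction. The reason for either difference was not tested.

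In Tia1 all 4 events fell within 1598 bases (chr6:86423606-86425203). A cassette exon of 66 bases (chr6:86423606-86423671) was included at 0.093, 0.109, 0.143 and 0.133 in control and 0.257, 0.281, 0.338 and 0.233 in Prmt5-null iGBs. The means were 0.119 and 0.277, with no overlap. The intron after it (673 bases, chr6:86423672-86424344) was retained at 0.395, 0.544, 0.196 and 0.326 in control and 0.543, 0.73, 0.571 and 0.679 in Prmt5-null iGBs, which met at 0.544 and 0.543.

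The 2 other Tia1 events concern the same stretch. An alternative 5′ splice site lengthens a coding exon of 109 bases downstream by 133, and the long form was at 0.049, 0.148, 0.188 and 0.163 in control and 0.277, 0.475, 0.245 and 0.485 in Prmt5-null iGBs, again with no overlap. In an event listed as a mutually exclusive pair, the form of 815 bases that keeps the intron, against the coding exon of 109 bases, was at 0.073, 0.07, 0.08 and 0.09 in control and 0.251, 0.422, 0.275 and 0.352 in Prmt5-null iGBs. Its mean of 0.0783 against 0.325 was the widest relative gap of the 12 events. The coding exon is in all 5 protein-coding transcripts of Tia1 in the annotation, and the long forms are in none. The 1 annotated transcript with the 815-base form, Tia1-212, also holds the coding exon, so these exons need not replace each other.

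Tial1 again has a counterpart exon, of 69 bases (chr7:128447039-128447107, minus strand). In both genes it lies between exons 5 and 6 of the coding transcript used for comparison, as the Luc7l and Luc7l2 exons both lie between exons 1 and 2. Its levels were 0.0, 0.391, 0.658 and 0.243 in control and 0.391, 1.0, 0.0 and 1.0 in Prmt5-null iGBs, from 32 reads in all 8 libraries together. The values ran from 0.0 to 0.658 in control and over the whole scale in Prmt5-null iGBs, and a difference was not detectable at this depth. The alternative 3′ splice site of the exon after it, whose long form adds 309 bases and starts with the same 69, was at 0.401, 0.589, 0.775 and 0.682 in control and 0.75, 1.0, 0.759 and 1.0 in Prmt5-null iGBs from 10 to 26 reads in each library, and the genotypes overlapped.

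From their first base to their first in-frame stop codon, which the reading frame of the annotated transcript gives, the Tia1 and Tial1 cassette exons are 37 bases long and match at 25 (67.6%). They are printed to show that both end this stretch in the same stop codon, with identical bases in capitals and the stop codon as the last 3.
Tia1, cassette exon, to its stop codon: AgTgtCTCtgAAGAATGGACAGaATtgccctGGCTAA
Tial1, cassette exon, to its stop codon: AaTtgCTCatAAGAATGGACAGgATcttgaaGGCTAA

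Prpf39 differed in the opposite direction. Its cassette exon of 100 bases (chr12:65055434-65055533) was included at 0.177, 0.382, 0.36 and 0.295 in control and 0.154, 0.112, 0.098 and 0.151 in Prmt5-null iGBs, with means of 0.303 and 0.129. The genotypes were apart, from 68 to 148 reads in each library. Reads that skipped the exon numbered 196 in the 4 control and 370 in the 4 Prmt5-null libraries, and those that included it 157 and 100. The stretch around the first stop codon that its insertion brings in frame is shown with that codon in capitals.
Prpf39, cassette exon, around the first stop codon: cagaaactagtcTAGtggttcaataaa

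The cassette exons had a feature in common that the choice of genes did not use. All 5 (of Luc7l, Luc7l2, Tia1, Tial1 and Prpf39) occur in 0 protein-coding transcripts of GENCODE M21, as do 14.3% of the 910 listed cassette exons found in that annotation (99.7% of 913). The transcripts that hold the 5 are annotated as nonsense-mediated decay or retained intron. Among all listed exons of this kind 46.9% had higher inclusion in Prmt5-null iGBs, against 30.3% of those found in a protein-coding transcript, and 3 of the 5 here did. Of the 5 lengths, 66 and 69 bases are multiples of 3, as were 41.8% of all listed cassette exons.

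Each exon was placed alone, by calculation, into an annotated coding transcript of its gene, between the exons that flank it there. The aim was to find where the reading frame of that transcript would end. In Tia1 and Tial1 the first stop codon, TAA, came at base 35 of the exon, after 133 and 135 codons in place of 375. In Prpf39 it was TAG at base 85, after 418 codons in place of 665. In Luc7l and Luc7l2 the exon shifted the frame and the stop fell in the second exon after it, after 79 codons in place of 325 and after 82 in place of 392. The last exon junction lay 637 to 820 bases beyond the stop codon in all 5 genes. For Luc7l2 the placement is a simplification. Most annotated transcripts that hold its cassette exon also hold the 71-base exon, and the frame with both was not calculated. In the annotated transcript from which the Luc7l2 cassette exon was read, 52 of its 68 bases are coding, with no stop codon inside.

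The 5′ splice sites of these events were read where an overlapping GENCODE transcript covers them, which was so for 8 of 10. Those of the Luc7l2 and Prpf39 cassette exons, whose inclusion was lower in Prmt5-null iGBs, were not covered and are missing below. Binding of the products of the 9 genes to these sites was not tested. The 8 sites are shown because the levels describe their use. Each line gives 30 bases, with the last 3 bases of the exon and the first 6 of the intron in capitals.
Luc7l, short form of exon 1: ACGGTGAGTctgagcggtggcccaggctct
Luc7l, long form of exon 1: TGGGTACAGtatgtgttggagttcacagtg
Luc7l, cassette exon and retained intron: GCCGTGAGTcacaaccaatttctaagctgt
Luc7l2, second exon of the pair: GCCGTGAGTtatcactaacttttcagatgt
Tia1, cassette exon and retained intron: AATGTTGGCgtgcttttttactttctgact
Tia1, short form of the exon: AGTGTAGGTgcattggagaagagaagcaaa
Tia1, long form of the exon: AATGTACTTagttttcattcttgtgatttt
Tial1, cassette exon: GTTGTAGATtttttttctcatttctattta

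All 8 introns began with GT. Compared base by base, on the transcribed strand, with CAGGTAAGT, the sequence that pairs along its whole length with the start of U1 snRNA, the 8 sites matched at 4 to 6 of 9 positions. The median was 6 over 27716 5′ splice sites of protein-coding transcripts read in the same way, of which 73.2% matched at 6 or more and 0.678% at all 9. The short form of Luc7l exon 1 was the one site of the 8 with 6 matches, and the Luc7l and Luc7l2 exons had the same 9 bases, with 5. In Luc7l and Tia1 the sites of the long forms matched no better than those of the short forms, at 4 against 6 and at 5 against 5.

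The intron beyond the site was rich in T at the Tia1 and Tial1 exons, the stretch in which TIA-1 and TIAR are known to bind uridine in other transcripts. Of the 21 intron bases after the capitals, 15 were T at the Tial1 cassette exon, 13 at the long form of the Tia1 exon and 12 at the Tia1 cassette exon. The median over the 27716 sites was 5, and 2.94% had 12 or more. The coding short form in Tia1 had 2, the Luc7l2 exon 9, and the 3 Luc7l sites 8, 6 and 4. A run of T is a description of these letters and not a site shown to be bound.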

How the data were processed

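RNA-seq of 4 Prmt5-null and 4 control iGB cultures was used, from stranded libraries described as independent biological samples. Per the labels and the study's methods, the authors trimmed reads (Trimmomatic 0.32), aligned them to GRCm38 (STAR 2.3.0e), counted uniquely mapped reads on Ensembl genes (featureCounts 1.4.4) and deposited a normalized signal, the counts divided by DESeq2 1.14.1 size factors. The strand setting of the counting is not given in the sources used here, so overlapping genes are uncertain. In each library 100% of values were whole reads within 0.01 of a read. The authors' rMATS tables list inclusion levels and read numbers; their p-values, FDR and differences were not used, and the tables' order within a genotype names no library.

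Of 39017 genes, 12321 were at 0 throughout. The 16250 whose mean reached 10 entered limma 3.58.1 (R 4.3.3, trend) as log2(normalized count + 1), and p was adjusted over all of them (Benjamini-Hochberg). The recovered reads were also fitted with edgeR 4.0.16 and with DESeq2 1.42.0. The limma, edgeR and DESeq2 fits were tested on simulated data. Exon lengths, transcript classes and sequences came from GENCODE M21 on GRCm38, the build of the files, in Python 3.11.15 with pandas 2.3.3 and NumPy 2.4.6. A genome sequence was not used here. The splice site windows were chosen after the events were seen. A difference in inclusion is Prmt5-null minus control.

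The 9 genes and the lists were chosen with earlier results of these data known. Beyond the 9, the genes named by rule are Prmt5 and the called genes of the pathway lists. Markers, the U1 snRNA genes and Malat1 are named beside the results they touch, and Ddx23, Sart3 and Cd3e were chosen after their values were seen. Alternatives changed the pseudocount, filter, normalization, tool, thresholds, libraries, gene length and event filters, the last by difference, by reads and by junction reads alone. The study had 2 experiments, which no label ties to a library, so all 18 balanced placements were fitted as a term. A list of proteins that work with U1 is not reported here.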

Additional observations from a re-analysis of the deposited data

How the results depend on the processing

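No paired analysis was possible because the groups share no replicate numbers. Prpf39 decided the count of genes called: it rose from 0 to 1 with DESeq2 (log2 fold change 0.63), and with the experiment as a term in 5 of 18 placements (log2 fold change 0.61, adjusted p 0.00174 to 0.0965 by limma); leaving out 1 library gave 0 to 1. Leaving out 1 library moved the log2 fold change from 0.45 to 0.75 for Prpf39, -0.043 to 0.081 for Snrnp70, -0.0041 to 0.21 for Luc7l, -0.056 to 0.17 for Luc7l2 and -0.091 to 0.047 for Tial1. The U6 list had 0 calls at 2-fold and 7 with no minimum fold. By length of the longest transcript, Luc7l2, Luc7l3 and Luc7l ranked 3, 4 and 5, and Tia1, Prpf39, Tial1 and Snrpc 6, 7, 8 and 9. A difference of at least 0.25 left 7 events (6 higher), and 20 reads in each library left 3 genes (Luc7l, Tia1 and Prpf39) with 8 events, and junction reads alone left 11 events in 5 genes. The causes were not tested. The other pseudocounts, filters, normalizations and thresholds, limma without a trend and edgeR changed the direction or the call of no gene among the 9, and calls in the Sm and U1 snRNA lists stayed at 0. Depth limits the Tial1 and Luc7l2 events.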
